A study of Mus musculus with 12 samples.

Results

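The 10 diacylglycerol kinase (DGK) genes of the mouse, Dgka, Dgkb, Dgkd, Dgke, Dgkg, Dgkh, Dgki, Dgkk, Dgkq and Dgkz, were followed across the cortex and cerebellum of SCA1 KI and wild-type (WT) mice. They were chosen by their symbols, and all 10 were found among the 15759 entries of the expression table. SCA1 KI mice are Atxn1 154Q/2Q knock-in animals: 1 of the Atxn1 alleles encodes ataxin-1 with 154 glutamines, is driven by the gene's own regulatory elements and is present in every cell, and the other allele encodes 2 glutamines. WT controls were littermates, and both genotypes were on a C57BL/6J background and were 12 weeks old. The labels describe male mice, whereas the methods describe males and females for the experiments in general. RNA from whole macrodissected tissue was sequenced from 3 libraries in each of 4 groups: cortex WT, cortex SCA1 KI, cerebellum WT and cerebellum SCA1 KI. The question was which DGK genes differed between the genotypes, and whether the difference was the same in both regions. The cerebellar libraries came from an earlier experiment of the same laboratory. Region and experiment therefore cannot be told apart when levels or genotype differences are compared between the regions. Each single genotype comparison lies within 1 region.

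DGKs add a phosphate to diacylglycerol (DAG) and turn it into phosphatidic acid. DAG is released when phospholipase C, switched on by Gq-coupled receptors such as the group I metabotropic glutamate receptors, cleaves a phosphoinositide. It recruits protein kinase C, RasGRP, chimaerin and Munc13 proteins to membranes, so a DGK both ends the DAG signal and makes a second lipid messenger, which also feeds the resynthesis of phosphoinositides. In neurons DGKs are known for their work at the synapse, where DAG controls vesicle release and spine shape. The family falls into 5 types. Type I (Dgka, Dgkb, Dgkg) binds calcium through EF hands, type II (Dgkd, Dgkh, Dgkk) carries a pleckstrin homology domain, type III (Dgke) prefers arachidonate-containing DAG of the phosphoinositide cycle, type IV (Dgkz, Dgki) carries a MARCKS-like stretch and ankyrin repeats, and type V is Dgkq alone.

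Values are counts divided by a size factor for each library, called normalized counts here. Libraries held between 29520855 and 51311309 reads on genes. Differences between groups are given as log2 fold changes (LFC) of normalized count + 1 with their standard error (SE), from 1 limma fit over all 12 libraries and 15369 genes, with p-values adjusted over all of those genes by the Benjamini-Hochberg method. A differentially expressed gene (DEG) had an adjusted p under 0.05 together with an LFC beyond 0.25 in either direction. The libraries of a group were separate samples by their labels, 3 a group. The fit pooled the spread within groups over all 12 libraries. Each p-value therefore rests on the spread in both regions and not only on that of the libraries compared. In whole tissue, fewer cells of a type and less RNA per cell cannot be told apart. Several libraries stood apart in their region. Library B of the cortex WT group had the highest summed level of 6 oligodendrocyte markers among the cortical libraries, 126665 against 73396 to 90703, of 7 striatal markers, 19628 against 5920 to 11594, and of 6 choroid plexus markers, 1714 against 236 to 374. Library A of the cortex SCA1 KI group had the lowest striatal sum, 5920. Library 2 of the cerebellum WT group had a summed level of 5 granule cell markers of 104965 against 141057 to 148552 in the other cerebellar libraries, and of 6 brainstem markers of 1692 against 715 to 904. Library 1 of the cerebellum SCA1 KI group had a choroid plexus sum of 760 against 19494 to 75883. The regions matched their labels: the granule cell markers summed to 1386 or less in every cortical library.

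In the cortex, 4 of the 10 DGK genes were DEGs. Dgkz, Dgkh and Dgki were lower in SCA1 KI mice and Dgka was higher, against 15.6% of all tested genes that were DEGs, 10.8% lower and 4.82% higher. In the cerebellum, 2 of 10 were DEGs, Dgkh and Dgkk, both lower, against 5.36% of all genes, 4.44% lower and 0.917% higher. Dgkh was the gene called in both regions. Dgkz, Dgka and Dgkk had a genotype difference that itself differed between the regions, against 8.15% of all genes at an adjusted p under 0.05. As the family was put forward with results of these data known, these counts are a description and nothing is read from their size. With values corrected in each library for gene length and GC content, the called genes were 2 lower and 3 higher in the cortex and 2 lower and 1 higher in the cerebellum. The median LFC of the 10 genes was -0.02 in the cortex and 0.08 in the cerebellum, and that of all tested genes was -0.0028 and -0.0049.

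**Figure D1:**
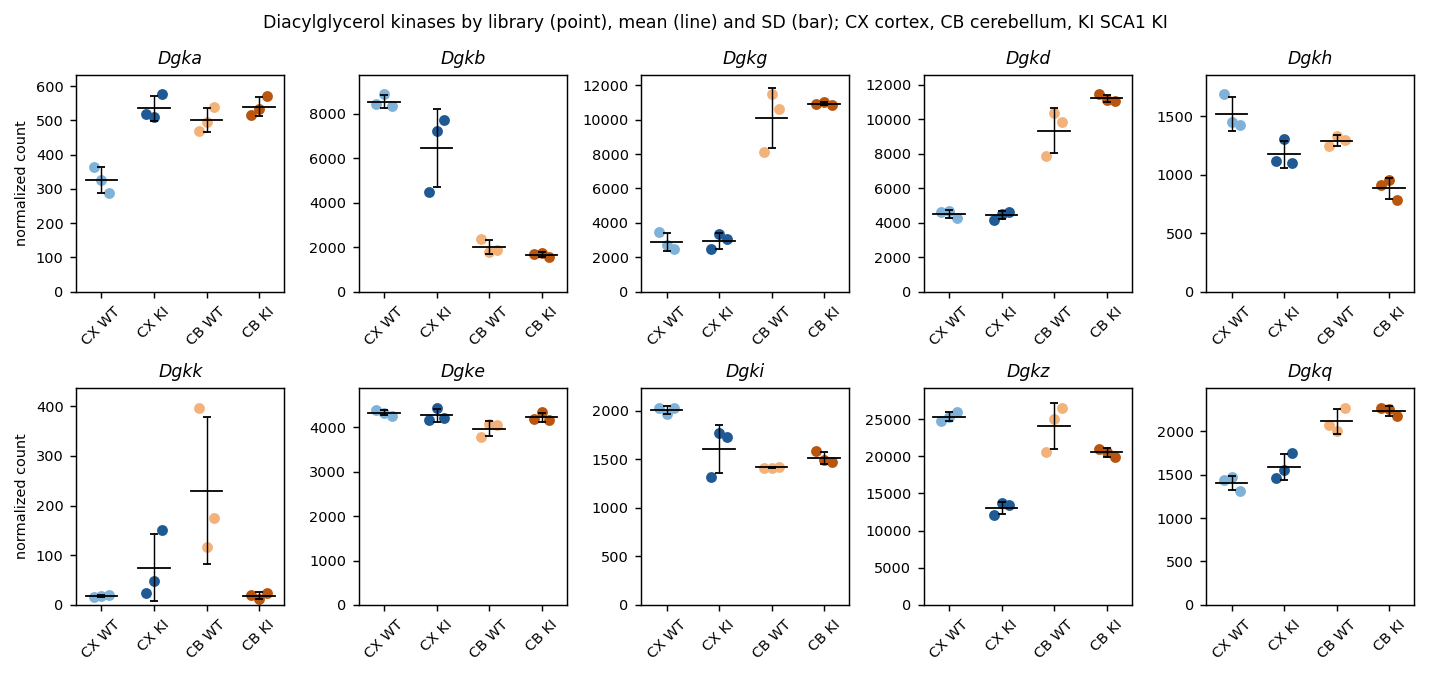
Normalized count (vertical axis, from 0, with its own scale in each panel) of each DGK gene in the 3 libraries of each group (points), with the group mean (line) and SD (bar). CX is cortex, CB is cerebellum and KI is SCA1 KI. The 3 SCA1 KI cortical libraries of Dgkz lie between 12068 and 13668, below the 24753 to 25992 of the WT cortex.

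The 5 genes called between the genotypes are shown first by the reference sequence at their transcription starts, so that it can be seen what these windows do and do not share. Each window runs from 250 bases before to 50 bases after a RefSeq start on GRCm38.p6, 5′ to 3′ on the gene's strand, and where a gene has several starts the window with the highest CpG content for its composition was taken. Capitals mark the GC box GGGCGG, the core of sites bound by Sp1-type factors, on either strand.
Dgkz, chr2:91963514-91963813, minus strand: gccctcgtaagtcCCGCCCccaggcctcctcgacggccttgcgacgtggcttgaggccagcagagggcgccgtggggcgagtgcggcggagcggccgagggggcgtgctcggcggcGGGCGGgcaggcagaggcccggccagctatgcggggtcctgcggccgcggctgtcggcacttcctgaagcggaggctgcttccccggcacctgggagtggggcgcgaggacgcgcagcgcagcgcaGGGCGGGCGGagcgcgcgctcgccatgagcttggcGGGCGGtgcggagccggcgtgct
Dgki, chr6:37299927-37300226, minus strand: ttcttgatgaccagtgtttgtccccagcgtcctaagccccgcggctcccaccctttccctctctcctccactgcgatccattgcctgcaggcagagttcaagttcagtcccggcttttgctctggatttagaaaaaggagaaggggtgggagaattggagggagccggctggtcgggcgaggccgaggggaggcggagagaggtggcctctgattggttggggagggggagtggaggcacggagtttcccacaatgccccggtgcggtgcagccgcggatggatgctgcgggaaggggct
Dgkh, chr14:78732680-78732979, minus strand: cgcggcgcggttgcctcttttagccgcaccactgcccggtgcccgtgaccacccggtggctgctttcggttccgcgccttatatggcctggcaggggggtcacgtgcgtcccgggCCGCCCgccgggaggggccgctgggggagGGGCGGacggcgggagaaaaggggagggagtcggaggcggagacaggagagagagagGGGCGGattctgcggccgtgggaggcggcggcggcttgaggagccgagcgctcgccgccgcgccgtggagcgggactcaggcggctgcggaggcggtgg
Dgka, chr10:128743829-128744128, minus strand: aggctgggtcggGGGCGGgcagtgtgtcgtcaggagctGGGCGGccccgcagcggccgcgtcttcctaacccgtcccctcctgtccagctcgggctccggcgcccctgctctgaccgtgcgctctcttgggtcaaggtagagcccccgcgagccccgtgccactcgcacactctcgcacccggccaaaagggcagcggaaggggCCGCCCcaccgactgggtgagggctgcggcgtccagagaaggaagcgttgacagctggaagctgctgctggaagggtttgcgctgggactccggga
Dgkk, chrX:6779056-6779355, plus strand: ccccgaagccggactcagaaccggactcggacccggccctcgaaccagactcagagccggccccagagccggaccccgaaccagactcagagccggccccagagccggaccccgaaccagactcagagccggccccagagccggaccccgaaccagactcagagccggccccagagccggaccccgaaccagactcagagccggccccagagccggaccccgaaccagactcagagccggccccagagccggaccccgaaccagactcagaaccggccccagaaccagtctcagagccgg
The printed windows of Dgkz and Dgkh were the richest in G and C of the 16 windows of the family, at 77.7% and 75%. The median over 32851 mouse windows, which were not chosen by CpG content, was 52.7%. The windows not printed were at 61.7% for Dgkz and at 46% and 42% for Dgkh, and those of Dgkh held no GC box. Of the 16 windows, 10 held a GC box, in 7 of the 10 genes, and 35.7% of all mouse windows hold one. The Dgki window printed above held none, and the Dgka window held 3. A relation of GC boxes to the genotype differences was not tested. The octamers bound by capicua (Cic), the repressor that forms a complex with ataxin-1, were searched on both strands as TGAATGAA, TGAATGGA, TCAATGAA and TCAATGGA. They were in 0 of the 16 DGK windows and in 3.84% of all windows. The cAMP response element TGACGTCA was likewise in 0 of the 16 windows and in 1.79% of all. The TATA box letters TATAAA were in 1 window, of Dgka, which is not the one printed, and in 13.6% of all. A match or its absence describes these letters in these windows only. The Dgkk window differed from the others in that it is a tandem repeat: 92.4% of its bases are the same as the base 36 positions away. Not every distance was tried, and at those tried the highest such value in the other 15 windows was 40.9%.

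Dgkz encodes the type IV kinase DGK-zeta, which binds the scaffold PSD-95 and is known for maintaining dendritic spines. The gene lies at chr2:91932824-91975864 on the minus strand of GRCm38. In the WT cortex its 3 libraries held 24753, 25238 and 25992 normalized counts. Those of the SCA1 KI cortex held 12068, 13668 and 13404. The groups did not overlap, and the SCA1 KI mean of 13047 ± 857 (SD, n = 3) was 51.5% of the WT mean of 25328 ± 625. The LFC was -0.96 ± 0.083 (SE), with an adjusted p of 1.54e-05 in limma. Leaving out any 1 library kept it between -0.99 and -0.90. In the cerebellum the WT libraries held 20643, 25012 and 26564 normalized counts, and the SCA1 KI libraries held 21048, 20611 and 19939. These groups overlapped through WT library 2, and the LFC of -0.22 ± 0.083 did not pass the test (limma adjusted p = 0.171). Without library 2 the cerebellar LFC was -0.33 with an adjusted p of 0.0157, which is a DEG, but it was -0.15 without library 6 (adjusted p = 0.452) and -0.09 with the length and GC correction (adjusted p = 0.489). The LFC of the cortex minus that of the cerebellum was -0.74 ± 0.12 (limma adjusted p = 0.00247), and -0.63 without library 2 (adjusted p = 0.00159). In WT mice the mean was 25328 in the cortex and 24073 ± 3070 in the cerebellum, an LFC of 0.08 that did not pass the test (limma adjusted p = 0.407).

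Dgki, the other type IV gene, at chr6:36846022-37300184, encodes DGK-iota, which is also known at synapses. Its WT cortical libraries held 2026, 1965 and 2033 normalized counts, and its SCA1 KI cortical libraries 1317, 1769 and 1728. All 3 SCA1 KI libraries were below the WT libraries, with library A the lowest. The mean was 79.9% of WT and the LFC was -0.34 ± 0.093 (limma adjusted p = 0.0256). Without library A the LFC was -0.20, which is under the limit of 0.25, and without WT library B, C or D the adjusted p was between 0.0575 and 0.0633. With the cortex fitted on its own the limma adjusted p was 0.103. In the cerebellum the groups also did not overlap, but in the other direction: WT libraries held 1412, 1416 and 1426 and SCA1 KI libraries 1587, 1491 and 1470 normalized counts. That LFC of 0.10 ± 0.093 did not pass the test (limma adjusted p = 0.685). The difference between the regions, -0.43 ± 0.13, missed the threshold (limma adjusted p = 0.0655), and was past it without cortical SCA1 KI library A (-0.30, adjusted p = 0.0340) or E (-0.51, 0.0331), with DESeq2 (0.0337) and with the length and GC correction (0.0210). Without any 1 of the other libraries the adjusted p was 0.0504 to 0.165. In WT mice Dgki was higher in the cortex by an LFC of 0.50 (limma adjusted p = 3.71e-04).

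**Figure D2:**
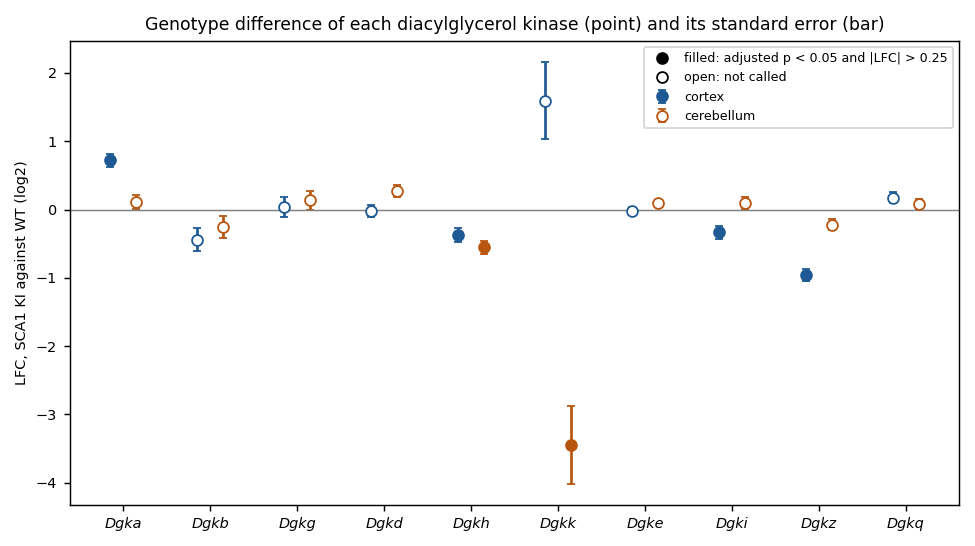
LFC of SCA1 KI against WT (vertical axis, log2) for each DGK gene, ordered by type, in the cortex (blue) and the cerebellum (orange). Bars are standard errors from limma and filled points passed the test. Dgkz sits at -0.96 in the cortex and -0.22 in the cerebellum, and Dgkk at 1.60 and -3.45.

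Of the type II genes, Dgkh was lower in both regions. It encodes DGK-eta and lies at chr14:78558750-78732776. In the WT cortex the libraries held 1689, 1447 and 1428 normalized counts, and in the SCA1 KI cortex 1114, 1310 and 1099. The groups did not overlap and the SCA1 KI mean was 77.2% of WT, an LFC of -0.37 ± 0.096 (limma adjusted p = 0.0173). In the cerebellum WT libraries held 1244, 1335 and 1294 and SCA1 KI libraries 908, 954 and 784 normalized counts. Every SCA1 KI library was again lower, the mean was 68.3% of WT, and the LFC was -0.55 ± 0.096 (limma adjusted p = 0.00464). The cortical call was the less stable of the pair: without WT library B, SCA1 KI library A or SCA1 KI library F its adjusted p was 0.0675, 0.0538 or 0.0610, and with the length and GC correction the LFC was -0.20 (adjusted p = 0.127). With the cortex fitted on its own its limma adjusted p was 0.0520. The cerebellar LFC stayed between -0.61 and -0.47 when any library was left out, past the test each time. The LFC of the regions differed by 0.18 ± 0.14, which did not pass the test (limma adjusted p = 0.501).

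Dgkk, the type II gene for DGK-kappa at chrX:6779306-6948363, was the lowest of the family in every group. In the WT cerebellum libraries 2, 4 and 6 held 397, 117 and 176 normalized counts. In the SCA1 KI cerebellum the libraries held 20.2, 10.99 and 24.2. The groups did not overlap, the SCA1 KI mean was 8.03% of WT, and the LFC was -3.45 ± 0.57 (limma adjusted p = 0.00329). Library 2 was the highest, and without it the LFC was -2.96 (adjusted p = 0.0134). In the WT cortex the libraries held 15.4, 18.8 and 20.49 normalized counts, which are 13, 17 and 18 reads. In the SCA1 KI cortex libraries A, E and F held 24.6, 48.6 and 151. All 3 were above the WT libraries, to very different degrees, and the LFC of 1.60 ± 0.57 missed the threshold (limma adjusted p = 0.0721). The cortical value turned on single libraries: the LFC was 2.18 without A (adjusted p = 0.0176) and 0.90 without F (adjusted p = 0.240). DESeq2 on the same reads gave 2.04 and an adjusted p of 0.00446, and edgeR gave 2.06 and 0.0521. The LFCs of the regions had opposite signs, and the difference of 5.04 ± 0.80 between them passed the test (limma adjusted p = 0.00234).

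Several markers of the midbrain moved along with Dgkk. The summed normalized count of 8 midbrain markers was 168.5 to 285 in the WT cortex and 792 to 1524 in the SCA1 KI cortex, and 1265 to 1718 in the WT cerebellum and 809 to 950 in the SCA1 KI cerebellum. Of the 6 that were abundant enough to test, 3 were higher in the SCA1 KI cortex and 4 were lower in the SCA1 KI cerebellum. Pou4f1, a transcription factor of midbrain and habenular neurons, had an LFC of 5.76 in the cortex and -3.59 in the cerebellum. Shox2 and Barhl1 were at 0 in all 3 WT cortical libraries. Barhl1 was called in neither region and did not fall in the cerebellum (LFC 0.09). There it averaged 629 normalized counts in WT and 668 in SCA1 KI libraries, where the midbrain sum averaged 1512 and 884. Within the SCA1 KI cortex the order differed, since library A had the highest midbrain sum, 1524, and the lowest Dgkk. The sum of 6 brainstem markers was 46.5 to 80.8 in the WT cortex and 72.9 to 277 in the SCA1 KI cortex, highest in library F, which also had the most Dgkk. In the cerebellum it was 715 to 1692 in WT and 750 to 904 in SCA1 KI libraries, and none of the 4 brainstem markers tested was called in either region. Hoxb5 of that list was at 0 in all WT cortical libraries. Some markers of other regions outside the cerebellum were also lower in the SCA1 KI cerebellum, while most of those tested were not called. Of 7 striatal markers 1 was lower there, and of 6 cortical excitatory markers 1 was lower and 1 higher. Vip and Sst, neuropeptides of forebrain interneurons, had LFCs of -5.47 and -3.29, and were the 2 of 6 markers of that list that were lower there. The sum of that list was 53655 to 54455 in WT and 44233 to 46505 in SCA1 KI libraries. Most of it came from Gad1, Pvalb and Gad2, with means of 27180, 15347 and 10798 in the WT cerebellum. None of these was called in the cerebellum, and Vip and Sst averaged 97.7 and 586 in its WT libraries. Of 6 thalamic markers 3 were lower, among them Tcf7l2 (LFC -3.09) and Slc17a6 (-1.91). The sum of all 6 was 43508 to 45383 in WT and 45833 to 46385 in SCA1 KI libraries. Most of that sum came from Rora and Calb2, with means of 22073 and 12886 in the WT cerebellum. Neither was called there, and Calb2 averaged 21264 in the SCA1 KI cerebellum. Tcf7l2 and Slc17a6 averaged 1978.5 and 4531 in the WT cerebellum. Tcf7l2 held 2404, 1480 and 2051 normalized counts in WT libraries 2, 4 and 6, the same order as Dgkk from high to low with library 2 first and 4 last, and 210 to 249 in the SCA1 KI libraries. Slc17a6 held 6803, 2878 and 3911 in those WT libraries and 982 to 1310 in the SCA1 KI libraries. Cpne7, 1 of 5 hippocampal markers, had an LFC of -2.85 and averaged 46.8 normalized counts in the WT cerebellum. The hippocampal sum was 4099 to 4544 in WT and 4293 to 4489 in SCA1 KI libraries. These names were chosen after their values were seen. The part of tissue from outside the cerebellum in the Dgkk result, and in the other cerebellar results, was not tested.

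**Figure D3:**
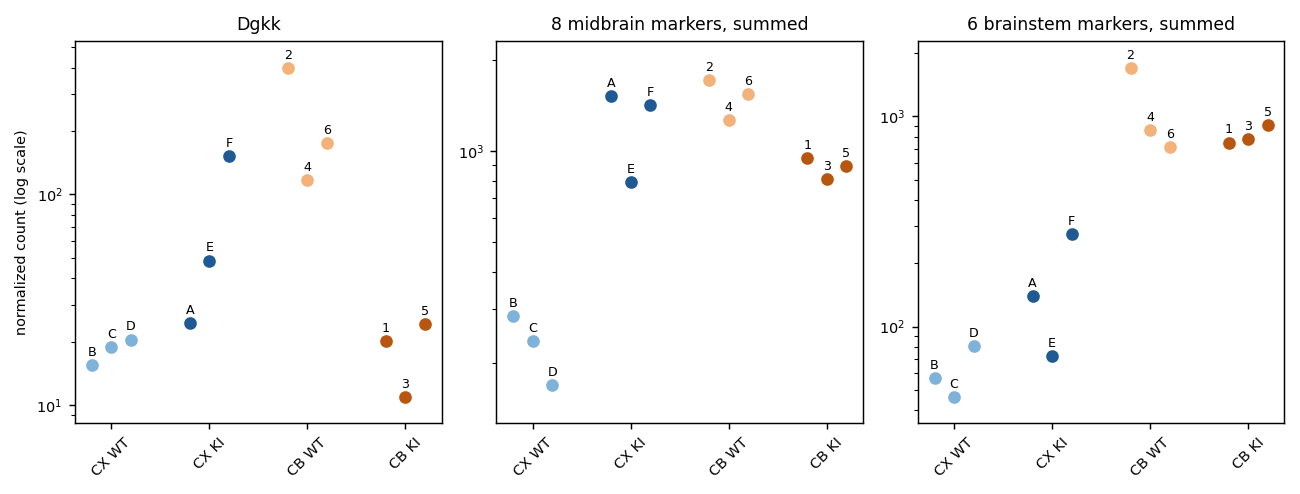
Normalized count of Dgkk (left) and the summed normalized counts of 8 midbrain markers (middle) and 6 brainstem markers (right) in each library, on log scales. Letters and numbers name the libraries. Dgkk and the midbrain markers are both higher in the SCA1 KI than in the WT cortex and lower in the SCA1 KI than in the WT cerebellum, while within the SCA1 KI cortex library A is lowest for Dgkk at 24.6 and highest for the markers at 1524.

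Dgkd, the third type II gene, at chr1:87853287-87945180, encodes DGK-delta, an enzyme known from growth factor receptor traffic and glucose uptake. It held 4626, 4650 and 4239 normalized counts in the WT cortex and 4154, 4507 and 4610 in the SCA1 KI cortex, and these overlapped. In the cerebellum it held 7837, 10361 and 9803 in WT libraries and 11437, 11085 and 11069 in SCA1 KI libraries. The cerebellar groups did not overlap, but library 2 was far below the other WT libraries, and the LFC of 0.27 ± 0.089 did not pass the test (limma adjusted p = 0.108). It was 0.15 without library 2 and 0.35 without library 4, and the second of these was past the threshold (adjusted p = 0.0386).

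Among the type I genes, Dgka was higher in the SCA1 KI cortex. It encodes DGK-alpha, best known as a brake on T cell activation, and lies at chr10:128720134-128744855. WT cortical libraries held 364, 327 and 288 normalized counts and SCA1 KI cortical libraries 520, 510 and 577. The groups did not overlap, the SCA1 KI mean was 164% of WT, and the LFC was 0.72 ± 0.10 (limma adjusted p = 3.59e-04), with a range of 0.63 to 0.80 when any library was left out. In the cerebellum WT libraries held 469, 496 and 540 and SCA1 KI libraries 516, 534 and 570 normalized counts. These overlapped (LFC 0.11 ± 0.10, limma adjusted p = 0.667). The LFC of the cortex was larger by 0.61 ± 0.14 (limma adjusted p = 0.0179), and this difference had an adjusted p of 0.0572 without cerebellar SCA1 KI library 1. In WT mice Dgka was lower in the cortex than in the cerebellum by an LFC of -0.62 (limma adjusted p = 1.06e-04), and the mean of 536 in the SCA1 KI cortex stood beside 502 in the WT cerebellum. Of 5 T cell markers only Lat was in the table, at 6.19 normalized counts in the WT and 7.22 in the SCA1 KI cortex on average, and the part of T cells in the Dgka value was not tested.

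Dgkb, which encodes DGK-beta, an isoform of forebrain neurons and above all of the striatum, lies at chr12:37817726-38634239. WT cortical libraries held 8429, 8872 and 8328 normalized counts and SCA1 KI cortical libraries A, E and F held 4463, 7225 and 7725. All SCA1 KI libraries were lower, but library A stood far below the other two and the LFC of -0.44 ± 0.17 did not pass the test (limma adjusted p = 0.0894). It was -0.19 without A (adjusted p = 0.2505) and -0.59 without F (adjusted p = 0.0342). Library A also had the lowest sum of the 7 striatal markers, 5920, while E and F had 9354 and 11038. WT libraries B, C and D had striatal sums of 19628, 9370 and 11594, beside Dgkb at 8429, 8872 and 8328. Of the 7 markers 2 were lower in the SCA1 KI cortex and none was higher. The part of striatal tissue in the cortical Dgkb value was not tested. In the cerebellum Dgkb held 2343, 1763 and 1867 normalized counts in WT and 1676, 1747 and 1547 in SCA1 KI libraries. Every SCA1 KI library was lower, by little (LFC -0.26 ± 0.17, limma adjusted p = 0.491). Dgkb had the largest excess in the WT cortex over the WT cerebellum of the 10 genes, an LFC of 2.11 (limma adjusted p = 1.49e-07).

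Dgkg, for DGK-gamma, an isoform known from Purkinje cells, lies at chr16:22468461-22657221 and had the opposite regional pattern. It held 3479, 2698 and 2479 normalized counts in the WT cortex and 8128, 11476 and 10645 in the WT cerebellum, an LFC of -1.80 (limma adjusted p = 1.91e-07). In SCA1 KI mice it held 2462, 3328 and 3052 in the cortex and 10899, 11036 and 10871 in the cerebellum. The genotypes overlapped in both regions, with LFCs of 0.03 ± 0.15 in the cortex and 0.13 ± 0.15 in the cerebellum.

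Dgke and Dgkq were not called between the genotypes in either region. Dgke, the sole type III gene, at chr11:89035179-89066850, was the most even of the family, with 4266 to 4380 normalized counts in the WT cortex, 4174 to 4445 in the SCA1 KI cortex, 3780 to 4085 in the WT cerebellum and 4157 to 4334 in the SCA1 KI cerebellum. Its LFC was -0.02 ± 0.052 in the cortex and 0.09 ± 0.052 in the cerebellum. Dgkq, the type V gene, at chr5:108646693-108669672, held 1437, 1467 and 1306 normalized counts in the WT cortex and 1461, 1552 and 1751 in the SCA1 KI cortex, which overlapped (LFC 0.18 ± 0.078, limma adjusted p = 0.146). With the length and GC correction its cortical LFC was 0.31 and passed the test (adjusted p = 0.00486). In the cerebellum the LFC was 0.08 ± 0.078. Dgkq shares 30.8% of its exon bases with the opposite-strand genes Tmem175 and Idua, and whether the counting used strand is not given in the sources used here, so its values are uncertain. The other 9 genes share at most 4.82% of their exon bases with a neighbour.

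By position alone, 6 of the 10 genes had SCA1 KI and WT cortical libraries that did not overlap, 4 lower and 2 higher, against 30.9% of all tested genes, 18% lower and 13% higher. In the cerebellum it was also 6, of which 3 were lower and 3 higher, against 31.8%, 17.5% and 14.3%. Dgkb, Dgkh, Dgki and Dgkz were the 4 that lay lower in the cortex, and Dgkb, Dgkh and Dgkk the 3 that lay lower in the cerebellum.

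The WT libraries of the cortex and the cerebellum were compared for each kinase, where region and experiment cannot be told apart. Between the WT cortex and the WT cerebellum 7 of the 10 genes differed past the threshold, against 61.7% of all tested genes, 30.7% lower in the cortex and 31% higher. Dgkb and Dgki were higher in the cortex. Dgkk, Dgkg, Dgkd, Dgka and Dgkq were higher in the cerebellum, with LFCs of -3.40, -1.80, -1.04, -0.62 and -0.59. Dgkz, Dgke and Dgkh were not called, with LFCs of 0.08, 0.12 and 0.23, the last 2 of these under the limit on the LFC at limma adjusted p of 0.0494 and 0.0465.

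To compare the genes with each other, normalized counts were divided by the length of all annotated exons in kb. On this scale Dgkz was the most abundant DGK in every library, at 4039 ± 99.6 per kb (SD, n = 3) in the WT cortex, 2081 ± 137 in the SCA1 KI cortex, 3839 ± 490 in the WT cerebellum and 3275 ± 89.1 in that of SCA1 KI mice. In the WT cortex it was followed by Dgkb, at 751 per kb, Dgkd, 658, Dgke, 516, Dgki, 322, Dgkg, 312, Dgkq, 195, Dgkh, 89.6, Dgka, 68.5, and Dgkk, 2.55. Only Dgki and Dgkg overlapped among neighbours in that order. In the SCA1 KI cortex Dgkb, at 569 per kb, overlapped both Dgkd, at 646, and Dgke, at 509, and Dgki, at 257, overlapped both Dgkg, at 318, and Dgkq, at 221. Dgka, at 112, lay above Dgkh, at 69.2. Their order was the reverse in WT mice on this length alone, since by the longest transcript Dgka already lay above Dgkh there, at 115 and 99.7 per kb with overlapping libraries. In the WT cerebellum Dgkd, at 1363 per kb, and Dgkg, at 1089, overlapped in second place, ahead of Dgke, 474, Dgkq, 294, Dgki, 227, Dgkb, 175, Dgka, 105, Dgkh, 76.1, and Dgkk, 32.1. The same order held in the SCA1 KI cerebellum, where neighbours did not overlap, from Dgkd at 1635 down to Dgkk at 2.58. With the longest annotated transcript as the length Dgkz stayed first and Dgkk last in each group, but the middle of the order changed. Dgkg then lay above Dgkd in the cerebellum, at 2575 against 1639 per kb in WT mice, and above Dgke and Dgki in the WT cortex, at 737 against 518 and 437. Dgkb, at 312, overlapped Dgki, at 309, in the WT cerebellum, and it followed Dgkz in the SCA1 KI cortex, at 1015, with libraries that overlapped those of Dgkd.

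The family's summed level was 6953 ± 21.9 per kb in WT and 4793 ± 445 in SCA1 KI cortex, and 7675 ± 836 and 7462 ± 140 in the cerebellum. Dgkz made up 58.1% ± 1.6 (SD, n = 3) of that sum in WT and 43.5% ± 1.3 in SCA1 KI cortex, and 49.96% ± 1.4 and 43.9% ± 0.37 in the cerebellum. Its share was lower in all 3 SCA1 KI than in all 3 WT libraries of each region, and these are values with no test. The type IV genes together went from 62.7% in the WT cortex to 48.8% in the SCA1 KI cortex, while the shares of type I, 16.3% and 20.7%, type II, 10.8% and 15.2%, type III, 7.41% and 10.7%, and type V, 2.81% and 4.62%, were higher. A share is relative: Dgke, the type III gene, had nearly the same level in both genotypes. In the cerebellum type IV made up 52.9% in WT and 47.1% in SCA1 KI mice, and type II 19.2% and 22.6%.

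**Figure D4:**
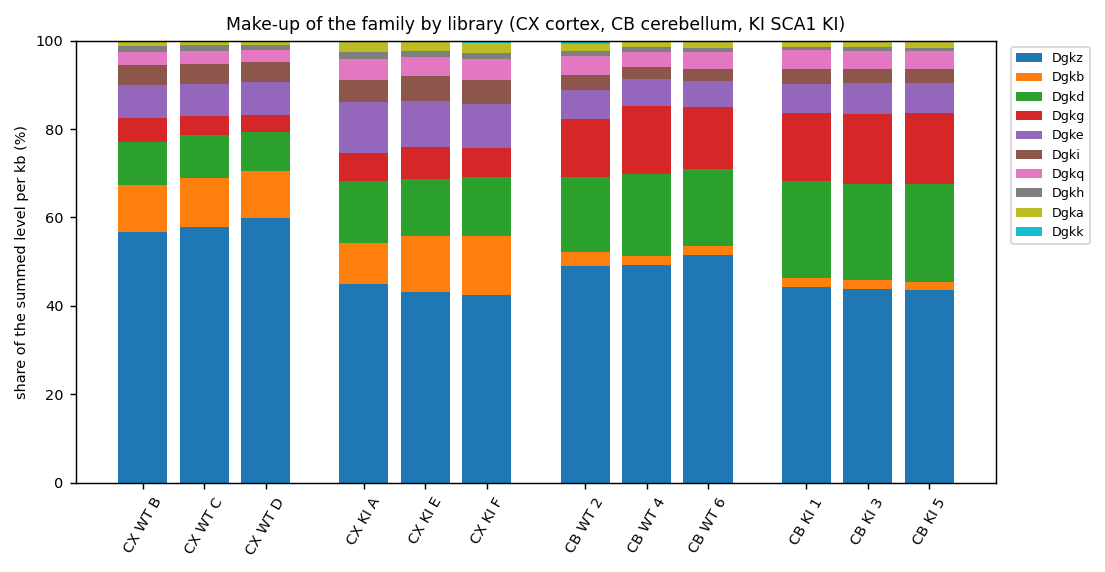
Share of each DGK gene in the family's summed level per kb of exon (vertical axis, percent) in each of the 12 libraries (bars). Dgkz, the lowest segment, averages 58.1% in WT and 43.5% in SCA1 KI cortex.

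Cell type markers differed between the genotypes beside these genes. The summed level of 6 markers of cortical excitatory neurons was 82858 to 84533 in the WT cortex and 56224 to 66239 in the SCA1 KI cortex, with 2 of 6 lower, Rorb and Slc17a7, and none higher. That of 5 astrocyte markers was 50263 to 55335 and 33383 to 43584, with 3 of 5 lower. On average the excitatory sum was 72.3% of WT and the astrocyte sum 74.7%, where Dgkz was at 51.5%, Dgkh at 77.2% and Dgki at 79.9% and Dgka at 164%. In the cerebellum the sum of 6 Purkinje cell markers was 278353 to 349900 in WT and 256080 to 288484 in SCA1 KI libraries, with none called, and that of 6 oligodendrocyte markers was 163928 to 250926 and 139534 to 139817, with 1 of 6 lower. None of the markers of these 4 lists was at 0 in a whole group. Their part in the DGK results was not tested.

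The genes around the kinases were taken as 86 genes in 8 lists, of which 85 were tested. In the cortex 30 were DEGs, 29 lower and 1 higher, with a median LFC of -0.16, against 10.8% of all tested genes lower, 4.82% higher and a median of -0.0028. In the cerebellum 12 were DEGs, all lower, with a median of -0.08, against 4.44% of all genes lower and a median of -0.0049. These shares are also the background for the counts of the single lists that follow, several of which have so few genes that a single call is near it. With the length and GC correction the split was 24 lower and 4 higher in the cortex and 11 lower and 2 higher in the cerebellum. Of the enzymes that make DAG, 4 of 12 phospholipases C were lower in the cortex and 1 of 12 in the cerebellum. Plcb1, a Gq-activated isoform prominent in the forebrain, fell from 18234 ± 216 to 11258 ± 509 normalized counts (SD, n = 3) in the cortex, an LFC of -0.70 ± 0.059 (limma adjusted p = 1.43e-05). Plcb4, known for acting downstream of the receptor mGluR1, fell there by 0.64 on the log2 scale, from 3666 to 2358 (limma adjusted p = 4.26e-05). In the cerebellum Plcb3, another Gq-activated isoform, fell from 2697 ± 230 to 1436 ± 17.4 normalized counts (LFC -0.90 ± 0.090, limma adjusted p = 9.18e-05).

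Of the receptors and G proteins upstream of phospholipase C, 3 of 8 tested were lower in the cortex and 4 of 8 in the cerebellum. Grm5, the metabotropic glutamate receptor mGluR5, fell from 1959 ± 690 to 586 ± 26.7 normalized counts in the cerebellum, an LFC of -1.68 ± 0.19 (limma adjusted p = 1.92e-04). Its WT libraries 2, 4 and 6 held 2720, 1373 and 1784, in the same order as the thalamic markers Tcf7l2 and Slc17a6 described beside Dgkk, and the part of such tissue in the cerebellar values of these lists was not tested. Among 7 other enzymes that use DAG, 2 were lower in the cortex and 1 in the cerebellum. Dagla, the lipase that turns DAG into the endocannabinoid 2-arachidonoylglycerol, fell in the cortex from 6475 ± 384 to 3577 ± 445 normalized counts, an LFC of -0.86 ± 0.085 (limma adjusted p = 3.28e-05), and was also lower in the cerebellum (LFC -0.68, limma adjusted p = 4.44e-04). Of the 20 DAG-binding effectors, 8 were lower in the cortex and 3 in the cerebellum. Unc13d fell in the cerebellum from 255 ± 22.4 to 98.0 ± 12.0 normalized counts (LFC -1.38 ± 0.17, limma adjusted p = 3.94e-04). It is the Munc13 relative that lacks the DAG-binding C1 domain, so it is in that list by family and not by DAG binding.

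The genes of phosphatidic acid and of the cycle beyond it followed. Of 8 phosphatidate phosphatases and phospholipases D, 1 was lower and 1 higher in the cortex and 1 was lower in the cerebellum. The one that was higher was Pld2, which makes phosphatidic acid from phosphatidylcholine. It rose in the cortex from 629 ± 60.95 to 765 ± 27 normalized counts (LFC 0.28 ± 0.086, limma adjusted p = 0.0388) and fell in the cerebellum by 0.34 on the log2 scale (limma adjusted p = 0.0363). Of 19 genes that carry phosphatidic acid back to phosphoinositides, 8 were lower in the cortex and 1 in the cerebellum. Of 5 related lipid kinases of the same fold, 1 was lower in the cortex and none was called in the cerebellum, and of 6 binding partners of the type IV kinases 2 were lower in the cortex and 1 in the cerebellum. The lower partners in the cortex included Dlg4, which encodes PSD-95, with an LFC of -0.52 (limma adjusted p = 1.23e-04), a gene named here after its value was seen.

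**Figure D5:**
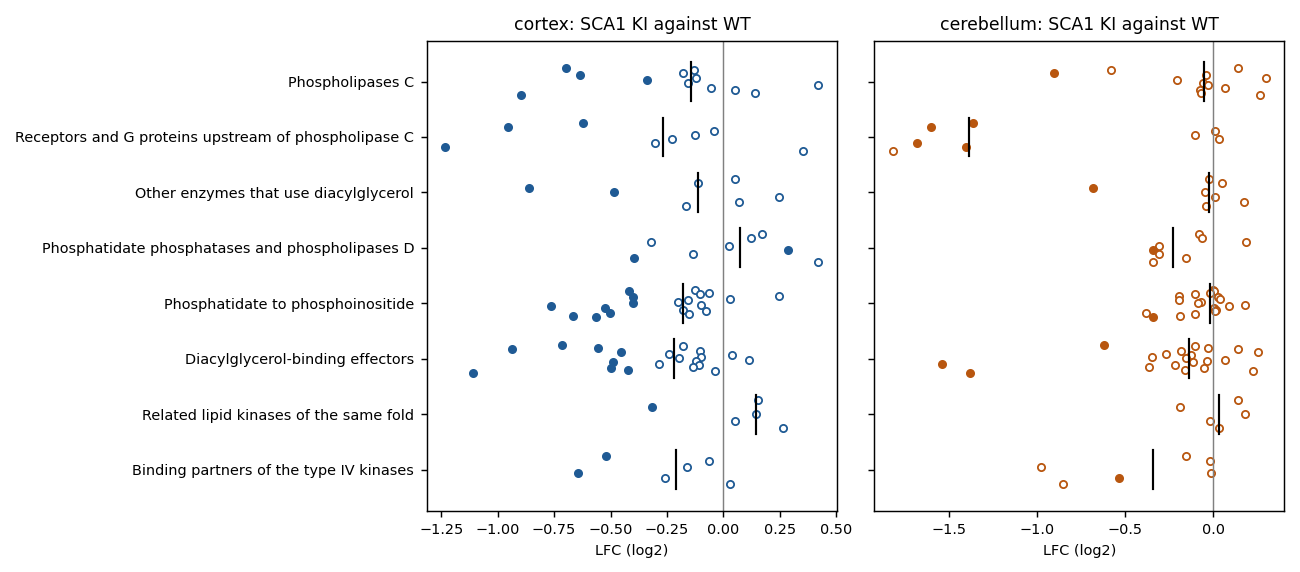
LFC of SCA1 KI against WT (horizontal axis, log2) for the tested genes of 8 lists around the DGKs in the cortex (left) and cerebellum (right). Each point is a gene, filled where it passed the test, and the black line is the list's median. The phosphatidate list is the one with a filled point above 0, Pld2 at 0.28 in the cortex.

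For the 5 called genes, the genes with the most similar profile were sought by Pearson's r of the log2 values over the 12 libraries, which share their regions and genotypes. Dgkz was closest to Fam131b (r = 0.97), which averaged 8792 normalized counts in the WT and 6253 in the SCA1 KI cortex, and 8752 and 8322 in the cerebellum. Its next entry, at r = 0.96, had a symbol turned into a date and is not named. Dgki was closest to Ptprg (r = 0.98), a receptor tyrosine phosphatase, and Prcp (0.94), and Dgkh to Arhgap20 (0.96) and Gabbr1 (0.95), a subunit of the GABA-B receptor. Dgka was closest to Dpp7 and Ash2l (both 0.95). Dgkk was closest to 1110015O18Rik and Baiap3 (both 0.94), and Baiap3, a Munc13-related gene, averaged 195 and 580 normalized counts in the WT and SCA1 KI cortex and 1043 and 82.4 in the WT and SCA1 KI cerebellum.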

How the data were processed

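The authors aligned 75 bp paired-end reads to mm10 with STAR, counted them with featureCounts and deposited 1 table of DESeq2-normalized counts, that is, each gene's read count divided by the size factor of its library, a signal in which whole reads could be recovered for 100% of values (tolerance 0.05 of a read). Versions are not given in the sources used here. The 12 columns were matched to the 4 groups by region and genotype, and their letters and numbers name the libraries in the text. Entries with a mean under 10 normalized counts were left out, which removed 390 of 15759.

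Values were tested on log2(normalized count + 1) with limma 3.58.1 (R 4.3.3), 4 group means and 1 estimate of the spread, Benjamini-Hochberg over 15369 genes. All 10 members passed the filter. edgeR 4.0.16 and DESeq2 1.42.0 were run on the recovered reads as alternatives. The script was tested on simulated counts in which 200 of the genes were changed. Exon lengths and coordinates came from GENCODE vM21 (GRCm38), in which 15009 of 15758 symbols were found, and promoter windows from RefSeq on GRCm38.p6, in which all 10 members were found. The rule for names was all 10 members, and from the pathway lists, in each region, the 3 DEGs of lowest p that were higher and the 3 that were lower. For likeness the 2 genes with the highest r were named for each called member. The members, pathway lists and marker lists were chosen with earlier results of these data known. Marker calls not given with the results, or given there only in part, were as follows. Forebrain interneuron markers were lower for 2 of 6 in each region, hippocampal markers for 1 of 5 in each, thalamic markers for 1 of 6 in the cortex and 3 of 6 in the cerebellum, and Purkinje markers for 3 of 6 in the cortex. In the cerebellum striatal markers were lower for 1 of 7, microglial and astrocyte markers for 1 of 5 each, and cortical excitatory markers for 1 of 6 with 1 higher. Values of some single markers of the midbrain and brainstem lists are not reported here. The blood marker Alas2 was lower in the cortex. None was called for oligodendrocytes in the cortex or, in either region, for hypothalamus, granule cells, cerebellar nuclei, choroid plexus, oligodendrocyte precursors, endothelium and T cells.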

Additional observations from a re-analysis of the deposited data

Results flagged for a closer look

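The genotype difference of 3 DGK genes differed between the regions by the interaction term of the limma fit, where region and experiment cannot be told apart. Cortical minus cerebellar LFC was -0.74 for Dgkz, with 12068 to 13668 normalized counts in the SCA1 KI cortex against 24753 to 25992 in the WT cortex and overlapping groups in the cerebellum. It was 5.04 for Dgkk, which lay higher in the 3 SCA1 KI cortical libraries and lower in the 3 SCA1 KI cerebellar libraries than in WT, beside several midbrain markers that moved the same way. It was 0.61 for Dgka, higher in 3 of 3 SCA1 KI cortical libraries, with overlapping groups in the cerebellum.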

How the results depend on the processing

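No paired analysis was possible because the columns carry letters and numbers other than the replicate numbers of the labels. Of 876 values of single genes under an alternative, 841 stayed on the same side of the threshold, 19 lost a call and 16 gained one, and none changed sign while called. Many of these values could hardly change, since leaving out a library of 1 region does not alter the genotype LFC in the other. The cortical calls of Dgkh and Dgki were each lost in 6 of 23 alternatives. The DGK genes called in the cortex went from 4 to 0 with an LFC limit of 1, to 2 (Dgka and Dgkz) with each region fitted on its own, and to between 2 and 4 when a library was left out, with 2 without WT library B. Those of the cerebellum went from 2 to 1 with the limit of 1 (Dgkk), to 1 with a minimum mean of 100 (Dgkh), which removes Dgkk from the genes tested, and to between 2 and 3 with a library left out. Leaving out a library gave 2 to 4 DGK genes for the difference between regions and 7 to 8 for the WT regions, where the limit of 1 left 4. Pathway DEGs went with the limit of 1 from 30 to 2 (cortex) and from 12 to 6 (cerebellum), and lay between 25 and 31 and between 9 and 14 with a library left out. The Dgkz share in the SCA1 KI cerebellum was 43.0% with the longest transcript as length.

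Over all genes, DEGs went from 2402 to 323 (cortex), from 824 to 312 (cerebellum) and from 9482 to 3620 between the WT regions with the limit of 1. In the cerebellum they went to 399, 454 and 512 without SCA1 KI library 1, 3 and 5, and genes that differed between regions went from 1253 to 783 and 833 without library 1 and 3. With the length and GC correction, cortical DEGs split into 1314 lower and 1028 higher (1661 and 741 before) and cerebellar DEGs into 584 and 540 (683 and 141 before), and the median gene moved by 0.03 and 0.09 on the log2 scale. Dgkz in the cortex kept its call in every alternative other than the limit of 1, with LFCs of -0.99 to -0.81. Of the 10 genes Dgkk had the fewest reads, with 13 to 18 reads in the WT cortex.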
